A study of Homo sapiens with 2 samples.

Results

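The clade B serpin genes of chromosome 18q21 were examined in Ca9-22 cells carrying a control vector or a DLEU1 vector. The members were the non-control probes whose gene name was SERPINB2, SERPINB3, SERPINB4, SERPINB5, SERPINB7, SERPINB8, SERPINB10, SERPINB11, SERPINB12 or SERPINB13. These were 10 of the 43317 gene names and 12 of the 58201 non-control probes on the array. The Ca9-22 line derives from an oral squamous cell carcinoma (OSCC), and DLEU1 is a long noncoding RNA. Both cultures were grown in RPMI-1640 with fetal bovine serum, and each was infected with a lentivirus and kept for 2 weeks in 6 mg/ml blasticidin, the control vector being empty. The cultures are called control cells and DLEU1 cells. Total RNA of each culture was labelled with Cy3 and hybridized to 1 Agilent 1-colour expression array. There was 1 array per vector and no replicate, so no test could be run and no spread between cultures is known.

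Serpins are proteins that trap a protease by offering it a reactive loop and changing shape once the loop is cut. Members of clade B lack a classical secretion signal and act mostly inside the cell, and many are made in stratified squamous epithelium, the tissue from which OSCC arises. The genes of the 18q21 cluster lie side by side and are held to have come from gene duplication. SERPINB3 and SERPINB4, the squamous cell carcinoma antigens, are the closest pair.

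Before the cluster was compared, the arrays and the gene carried by the vector were examined. The DLEU1 probe A_23_P151337 gave a processed signal of 2178 in control cells and 14156 in DLEU1 cells, a log2 difference of 2.74 or 6.67-fold. The array annotation places that probe within a DLEU1 transcript, while 2 DLEU1 probes of another transcript differed by 0.85 and 0.54. A probe was called detected where the scanner software marked it well above background, which held for 47.6% and 48.1% of the probes. Levels are log2 processed signal minus the 75th percentile of the array, and differences are DLEU1 vector minus control vector. Over the 20246 gene names detected on both arrays, the median difference was -0.07, and the 5th and 95th percentiles were -1.34 and 1.40. In a strip of the DLEU1 vector array, 29.7% of the 516 probes detected on the control vector array were at least 2-fold lower, against 12.1% outside it, and 0 of the cluster's probes lay in the strip.

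Of the 10 cluster genes, 6 were detected on both arrays, SERPINB2 was detected with the DLEU1 vector only, and SERPINB10, SERPINB11 and SERPINB12 were detected on neither. A total of 4 of the 6 were at least 2-fold higher with the DLEU1 vector, namely SERPINB3, SERPINB4, SERPINB13 and SERPINB7, and 0 were 2-fold lower. The SERPINB3 probe also lists SERPINB4 transcripts, so SERPINB3 and SERPINB4 may not be separate measurements in this count and in the median. Over all gene names detected on both arrays, 9.18% passed 2-fold upward and 9.78% downward. SERPINB5 and SERPINB8 were higher by less than 2-fold. The median difference of the 6 genes was 3.02, or 2.96 with SERPINB2 added at its bound. In bulk RNA, a larger share of cells that make a transcript and more transcript per cell cannot be told apart.

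**Figure D1:**
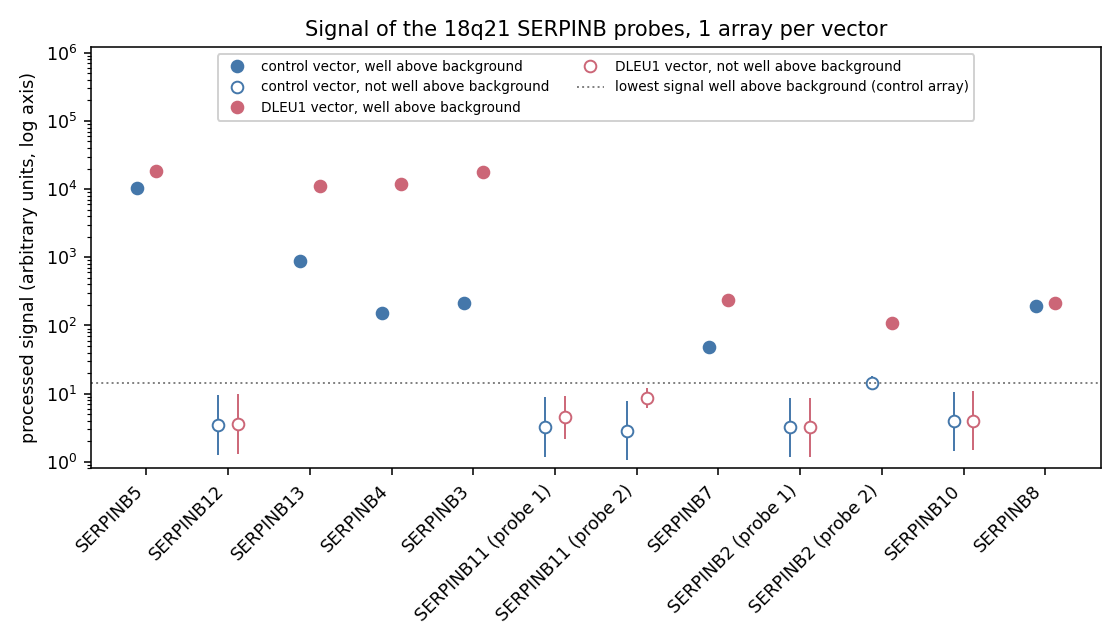
Processed signal (arbitrary units, log axis) of the 12 cluster probes in chromosome order in control cells (blue) and DLEU1 cells (red), 1 array each. Filled points are well above background and open points are not, bars are the scanner software's error of the spot, and heights can be compared only within a probe. SERPINB3 goes from 215 to 17640, SERPINB8 from 195 to 212, and the probes of SERPINB10, SERPINB11 and SERPINB12 are open on both arrays.

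SERPINB3 inhibits papain-like cysteine proteases such as cathepsins L, K and S, and is used as a serum marker of squamous cell carcinoma. Its probe A_23_P55632 lies on chromosome 18 from 61322767 to 61322826 (hg19, minus strand). The signal was 215 in control cells and 17640 in DLEU1 cells. The level thus went from -0.17 to 6.22, a difference of 6.40 with a software error of 0.21, or 84.2-fold. Among the 20246 gene names detected on both arrays, this was the 7th largest difference upward. The ranks given below also run from the largest upward difference. The probe's annotation lists SERPINB4 transcripts beside SERPINB3, so its signal may hold RNA of both genes and their shares are uncertain.

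SERPINB4 inhibits serine proteases of the chymotrypsin type, among them cathepsin G and mast cell chymase. Its probe A_23_P502413 (61304925 to 61304984, minus strand) lists transcripts of SERPINB4 and of no other cluster gene. The signal was 150.0 in control cells and 11902 in DLEU1 cells. The level went from -0.69 to 5.66, a difference of 6.35 with a software error of 0.21, or 81.4-fold, which ranked 8th. The differences of SERPINB3 and SERPINB4 were 0.05 apart, which is below the software error of either. By annotation, the SERPINB4 value rests on SERPINB4 alone, while a value of SERPINB3 alone cannot be given. Whether the SERPINB4 probe also takes up SERPINB3 RNA was not tested.

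The sequences upstream of this pair are shown because the differences of SERPINB3 and SERPINB4 were nearly the same. Since the SERPINB3 probe also lists SERPINB4 transcripts, this nearness cannot be read as agreement of separately measured genes. Any link between it and the upstream sequences was not tested. The 250 bases upstream of each transcription start were taken from RefSeq (GRCh38.p14). The SERPINB3 window is chr18:63661894-63662143 and the SERPINB4 window is chr18:63644257-63644506, both on the minus strand and both written 5′ to 3′. Capitals mark the bases that differ between them.
SERPINB3: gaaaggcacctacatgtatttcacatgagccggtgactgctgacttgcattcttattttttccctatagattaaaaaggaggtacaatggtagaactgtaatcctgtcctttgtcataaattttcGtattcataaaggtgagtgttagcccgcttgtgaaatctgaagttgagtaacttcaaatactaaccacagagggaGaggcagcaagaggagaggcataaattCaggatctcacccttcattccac
SERPINB4: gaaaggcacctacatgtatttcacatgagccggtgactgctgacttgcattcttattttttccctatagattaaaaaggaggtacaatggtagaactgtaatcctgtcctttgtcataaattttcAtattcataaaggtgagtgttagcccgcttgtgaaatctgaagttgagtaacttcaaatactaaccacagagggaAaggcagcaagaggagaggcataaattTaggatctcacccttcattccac
The windows were identical at 247 of 250 bases, or 98.8%. The differences were G126A, G201A and C228T, with the SERPINB3 base first, the position counted from 1 at the 5′ end of the window, and the SERPINB4 base last. The next most alike pair of windows in the cluster, SERPINB13 with a start of SERPINB7, was identical at 33.6% of positions when the windows were laid side by side without gaps.

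SERPINB13, also called headpin, inhibits cathepsins L and K and is made in squamous epithelium. Its probe A_33_P3279019 (61266324 to 61266383, plus strand) gave signals of 876 and 11148. The level went from 1.85 to 5.56, a difference of 3.71 with a software error of 0.20, or 13.1-fold, which ranked 53rd. Its level was above the 75th percentile of the array in control cells too.

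SERPINB7, or megsin, is a serpin of the upper epidermis whose loss causes a palmoplantar keratoderma. The value of each cluster gene detected on both arrays rests on 1 probe of 60 bases. As an example, the SERPINB7 probe A_23_P141802 (61471776 to 61471835, plus strand) is shown.
SERPINB7 probe: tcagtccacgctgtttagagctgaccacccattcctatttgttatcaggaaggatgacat
The signal was 48.7 in control cells and 239 in DLEU1 cells. The level went from -2.31 to 0.02, a difference of 2.33 with a software error of 0.23, or 5.04-fold, which ranked 277th. With normexp background correction the difference was 1.48, the lowest of its values under other processing and still above 2-fold.

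SERPINB2, or plasminogen activator inhibitor 2, inhibits urokinase and tissue plasminogen activator. The probe A_24_P245379 (61570202 to 61570261, plus strand) was the one cluster probe detected on 1 array only.
SERPINB2 probe: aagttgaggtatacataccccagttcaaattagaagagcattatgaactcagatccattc
Its signal was 14.5 in control cells, which was not well above background, and 111 in DLEU1 cells. The bound for SERPINB2 was 7.80-fold higher in DLEU1 cells, or 2.96 on the log2 scale with a software error of 0.36. Its control level (-4.06) lay just above the lowest detected level of that array (-4.09). The bound is therefore the plain difference of the probe and not a strict minimum. Among the 1238 gene names detected with the DLEU1 vector only, 35.6% had a bound of at least 2-fold. The other SERPINB2 probe, A_33_P3353525 (61538974 to 61539033), belongs to a separate Ensembl transcript, ENST00000404622, and was not well above background on either array, with signals of 3.21 and 3.19. The higher signal was therefore seen at 1 of 2 SERPINB2 probes, the one annotated to the RefSeq transcript NM_002575.

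SERPINB5, or maspin, is an epithelial serpin that does not inhibit proteases. Its probe A_33_P3310104 (61172218 to 61172277, plus strand) gave signals of 10452 and 18697. The level went from 5.43 to 6.31, a difference of 0.88 with a software error of 0.20, or 1.84-fold. Its level was far above the 75th percentile of the array in both cultures. The difference was below the 2-fold threshold as reported, and above it with quantile normalization (1.10) and with loess (1.14).

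SERPINB8 inhibits the proprotein convertase furin. Its probe A_24_P147461 spans an exon junction (61647137 to 61648978, plus strand) and gave signals of 195 and 212. The level went from -0.31 to -0.16, a difference of 0.15 with a software error of 0.21, or 1.11-fold. The difference was within the software error, and it was -0.18 when the spike-in probes were set equal.

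SERPINB10, SERPINB11 and SERPINB12 were not well above background on either array, which was also so for 48% of all gene names. SERPINB10, or bomapin, is a serpin of blood-forming cells, and its probe gave levels of -5.95 and -5.88. SERPINB12, a trypsin inhibitor, gave signals of 3.46 and 3.60. SERPINB11, whose protease target is not established, gave signals of 2.87 and 8.61 at one probe and 3.24 and 4.50 at the other. Both SERPINB11 probes were marked as positive and significant against background with the DLEU1 vector and not with the control vector. Neither was well above background on either array, and no fold is given. The lowest signal marked as well above background was 14.2 in control cells and 14.3 in DLEU1 cells, so all 4 probes lay below it.

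Upstream windows were then compared over the cluster. The RefSeq table held 8 of the 10 genes, with 11 windows in all. SERPINB13, SERPINB2 and SERPINB8 are shown as examples of a large difference, of detection with the DLEU1 vector only, and of little difference. All lie on the plus strand, at chr18:63587093-63587342, chr18:63887455-63887704 and chr18:63969831-63970080. Capitals mark matches to any of the motifs searched, which are spelled out after them.
SERPINB13: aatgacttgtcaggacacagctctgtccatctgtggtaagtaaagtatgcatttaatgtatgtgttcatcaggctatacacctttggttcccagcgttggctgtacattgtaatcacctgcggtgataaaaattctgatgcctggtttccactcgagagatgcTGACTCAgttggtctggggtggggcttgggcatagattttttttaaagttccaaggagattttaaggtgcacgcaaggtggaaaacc
SERPINB2: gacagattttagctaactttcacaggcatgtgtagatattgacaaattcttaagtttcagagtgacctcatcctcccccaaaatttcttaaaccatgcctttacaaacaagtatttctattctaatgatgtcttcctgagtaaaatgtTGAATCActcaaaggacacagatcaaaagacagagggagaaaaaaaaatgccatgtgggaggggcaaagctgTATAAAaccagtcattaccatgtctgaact
SERPINB8: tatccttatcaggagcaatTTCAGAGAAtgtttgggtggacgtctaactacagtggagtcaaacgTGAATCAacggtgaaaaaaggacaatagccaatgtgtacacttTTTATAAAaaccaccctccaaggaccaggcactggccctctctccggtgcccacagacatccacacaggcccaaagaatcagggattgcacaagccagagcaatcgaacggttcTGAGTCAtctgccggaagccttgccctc
The motifs were searched on both strands. TGACTCA, the consensus of the AP-1 factors, lay in 4 of the 11 windows, against 4.2% of 35116 windows of the same length over all genes. These windows belonged to SERPINB13, SERPINB8 and 2 starts of SERPINB7. The looser TGANTCA, which includes TGACTCA, lay in 7 windows of 6 genes, against 6.57% of all windows. TATAAA, the core of the TATA box, lay in 4 windows, against 3763 of the 35116. TTCNNNGAA, a site type bound by STAT factors, lay in 3 windows, against 6.57%. The windows of SERPINB3 and SERPINB4 held none of these letters, and SERPINB8, which differed little, held all of the motif types. These matches are a description of the letters, not of binding.

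The position of the genes was examined next. From SERPINB5 to SERPINB8 the cluster's probes span 477 kb, in the order SERPINB5, SERPINB12, SERPINB13, SERPINB4, SERPINB3, SERPINB11, SERPINB7, SERPINB2, SERPINB10 and SERPINB8. The 4 genes that were at least 2-fold higher lay in the interior, as did the undetected ones, and the detected genes at both ends, SERPINB5 and SERPINB8, differed by less. They were not contiguous, because SERPINB11 lies between SERPINB3 and SERPINB7 and was not detected. Within 1000000 bases of the cluster's ends the array held 16 other gene names, of which 9 were detected on both arrays.

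**Figure D2:**
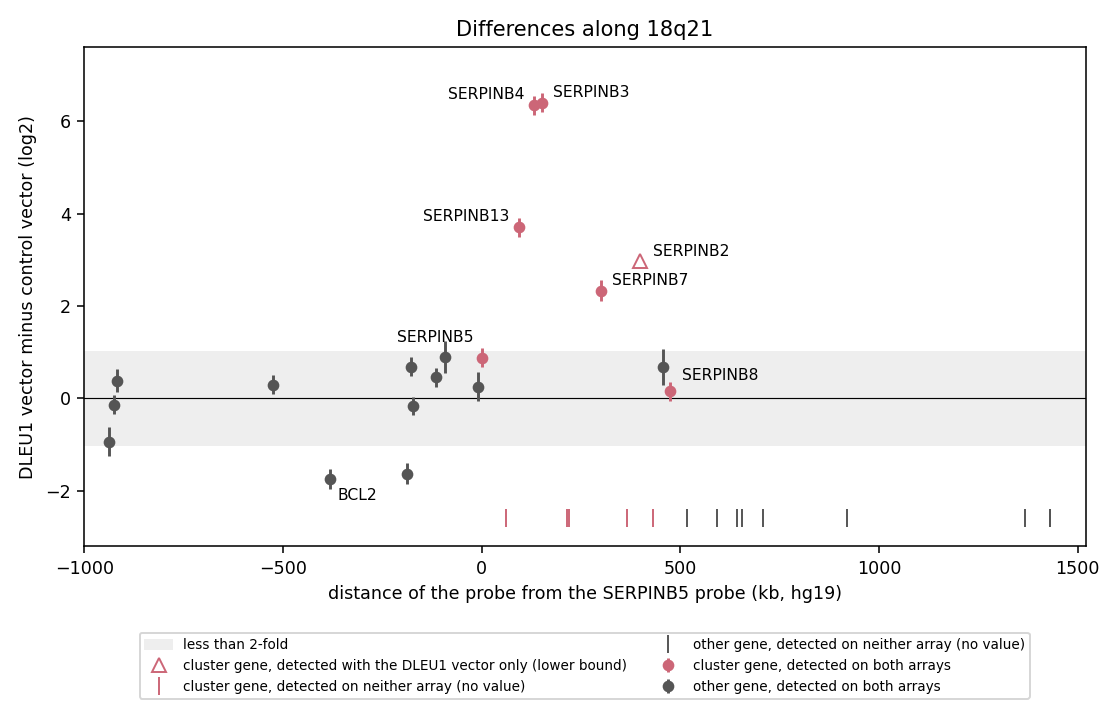
Log2 difference (DLEU1 vector minus control vector) of each probe within 1000000 bases of the cluster against its distance in kb from the SERPINB5 probe (hg19), with red for cluster genes and grey for others. Bars are the software error, the grey band is less than 2-fold, and the open triangle is the bound of SERPINB2, equal to its plain difference. Ticks at the bottom are probes not well above background on either array, which have no value. The cluster genes above the band lie between the SERPINB5 and SERPINB8 probes, and both BCL2 probes lie below the band.

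A list of 6 genes in or near the cluster, 1 of them within its span (HMSD) and 1 farther than 1000000 bases from it (TNFRSF11A), was set beside it. Of these, 0 passed 2-fold upward and 2 passed it downward, and the median was 0.06. BCL2, an inhibitor of apoptosis, gave signals of 266 and 77.5, a difference of -1.74, and its second probe gave -1.64. TNFRSF11A, the receptor RANK, differed by -1.29. PHLPP1, VPS4B, KDSR and HMSD lay between -0.17 and 0.68, and the KDSR probes went opposite ways (-0.17 and 0.68). HMSD, next to SERPINB8, differed by 0.68 with a software error of 0.39. Its signals, 15.2 and 23.8, were near the lowest marked as well above background (14.2 and 14.3). Names outside the list within 1000000 bases that were detected on both arrays differed by less than 2-fold, from -0.94 at AY358662 to 0.90 at the unnamed probe A_21_P0014855. On chromosome 18 outside the cluster, 10.8% of 288 gene names detected on both arrays passed 2-fold upward and 10.8% downward, and their median was -0.07.

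The cluster was then set beside other serpins. The clade B genes SERPINB1 and SERPINB6 lie on chromosome 6 with SERPINB9, outside the cluster. SERPINB1, an inhibitor of neutrophil elastase, was 1.94-fold higher (0.96), SERPINB6 differed by -0.21 and by -0.13 at a second probe, and SERPINB9 was not detected. Of 21 serpins of other clades, 8 were detected on both arrays, of which 3 passed 2-fold upward and 1 downward, and the median was 0.47. The higher ones were SERPINF1 (2.59), known as pigment epithelium-derived factor, SERPINA3 (2.19) and SERPINA5 (1.53). Another SERPINA3 probe differed by 1.69, and a further one was detected with the DLEU1 vector only (signals of 8.27 and 185). SERPINE2 was lower (-1.28).

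Proteases that the cluster's products are known to meet, with the urokinase receptor PLAUR, were listed as well. Of 12 genes, 8 were detected on both arrays, of which 1 passed 2-fold upward and 1 downward, and the median was -0.07. Urokinase, PLAU, a target of SERPINB2, gave signals of 393 and 155, a difference of -1.30. PLAT, which encodes tissue plasminogen activator, differed by 1.58, and PLAUR by -0.65. The cysteine protease genes CTSL and CTSV gave -0.42 and -0.60, CTSK gave 0.91, and FURIN, the target of SERPINB8, gave 0.29. The thrombin gene F2 gave 0.61 from dim signals of 18.6 and 27.3, with a software error of 0.40. CTSS, CTSG, CMA1 and PRSS1 were not detected, so the listed targets of SERPINB4, CTSG and CMA1, gave no value.

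**Figure D3:**
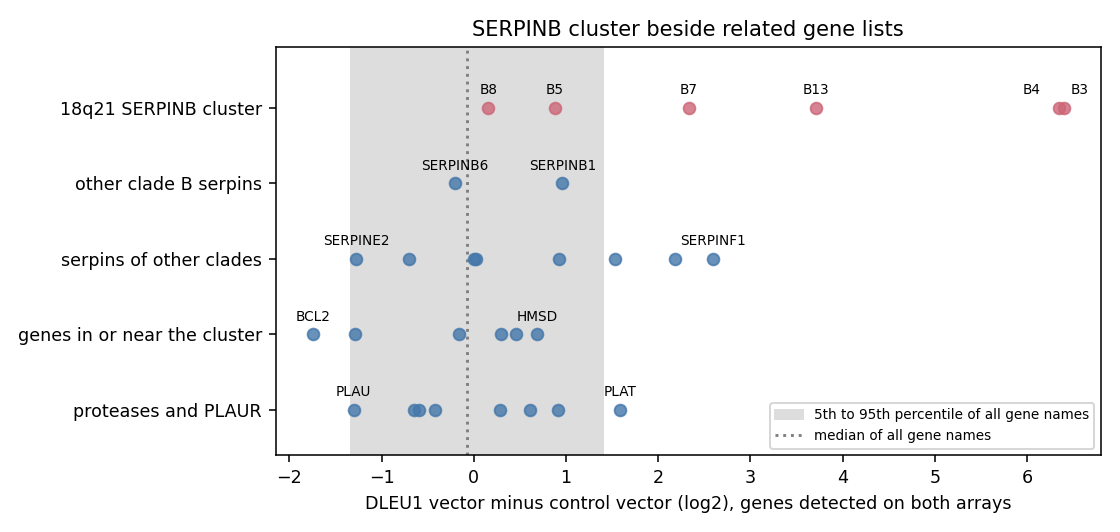
Log2 difference (DLEU1 vector minus control vector) of each gene detected on both arrays, 1 point per gene, for the 18q21 cluster (red, B3 standing for SERPINB3 and so on) and the lists it was set beside (blue, with the lowest and highest gene named). The grey band runs from -1.34 to 1.40, the 5th to 95th percentile of all gene names. In the cluster, SERPINB7, SERPINB13, SERPINB4 and SERPINB3 lie to its right. In the other lists, SERPINF1, SERPINA3, PLAT and SERPINA5 also lie to its right, and BCL2 lies to its left.

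Markers of cell types were examined as well, and rises were not confined to the keratinocyte list. All 6 markers of squamous keratinocytes were detected on both arrays, and 5 were at least 2-fold higher with the DLEU1 vector. KRT6A differed by 2.91, KRT14 by 2.85, DSG3 by 2.51, KRT5 by 2.10, CDH1 by 1.04 and TP63 by 0.96. The signal summed over the list's detected probes, which include probes other than those given, went from 59010 to 310042. Heights of different probes cannot be compared, so such sums do not weigh the genes evenly. Among markers of other cells, the fibroblast list had 2 of 6 genes detected in control cells and 3 in DLEU1 cells. Its signal, summed over detected probes, went from 363 to 5268, with COL1A1 going from 337 to 5217 (a difference of 3.99). PDGFRB differed by -0.33, LUM was detected in DLEU1 cells only (at least 2.47-fold higher), and COL1A2, COL3A1 and DCN were not detected. The endothelial list, with 2 of 3 genes detected, went from 137 to 676, summed over detected probes. Its increase lay in 1 VWF probe (48.1 to 609, a difference of 3.70), while another VWF probe differed by -0.07, CDH5 by -0.59, and PECAM1 was not detected. The leukocyte list, with 5 of 6 genes detected, went from 3028 to 5830, with CSF1R at 1.86, PTPRC at 0.45, CD79A at 0.22, ITGAM at -0.65 and CD14 at -1.60, and CD3E was not detected. The melanocyte list, with 1 of 3 genes detected, went from 349 to 365. The part of these markers in the differences of the cluster was not tested.

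The differences were recomputed with other processing. SERPINB3 lay between 5.97 and 6.55, SERPINB4 between 5.75 and 6.47, SERPINB13 between 3.37 and 3.90 and SERPINB7 between 1.48 and 2.44 under every alternative that gave a value. SERPINB5 lay between 0.54 and 1.14, and SERPINB8 between -0.18 and 0.27. The order of SERPINB3 and SERPINB4 was not separable, since SERPINB4 was slightly the higher when the local trend over the array was removed. The genes below them kept the order SERPINB13, SERPINB7, SERPINB5 and SERPINB8 in each setting that gave them all a value.

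**Figure D4:**
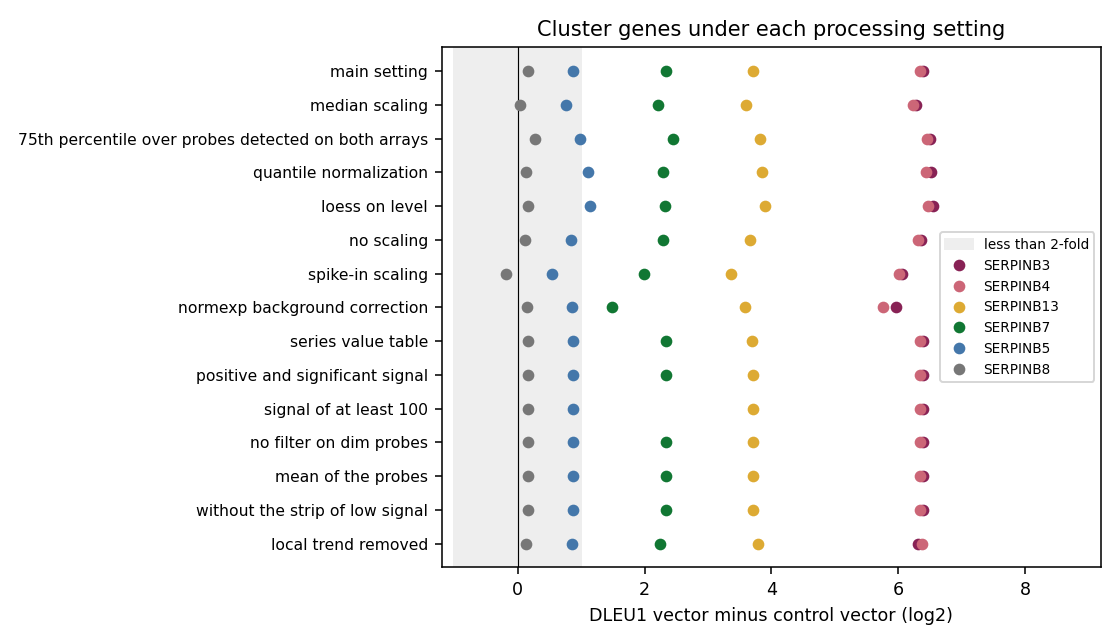
Log2 difference (DLEU1 vector minus control vector) of the 6 cluster genes detected on both arrays, with a row for each processing setting and a colour for each gene. SERPINB3, SERPINB4, SERPINB13 and SERPINB7 lie right of the grey band (less than 2-fold) wherever they have a value, SERPINB5 leaves the band with quantile normalization and loess, and SERPINB7 has no value at a minimum signal of 100.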

How the data were processed

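Gene expression in Ca9-22 cells was measured on 2 arrays, 1 per vector, so groups came from the labels and no test was made. The deposited intensity values were made by the authors with Agilent Feature Extraction (10.7.3.1 in the headers). That software subtracted background and gave dim spots a surrogate value, so folds of dim probes depend on the background step. The authors used GeneSpring. The series values held the same intensity, rounded (at most 0.497% apart). Control and outlier spots were left out, spots of a probe were averaged on the log2 scale, and the 75th percentile of non-control probes (7.92 and 7.88) was subtracted. The value of a gene was its brightest probe detected on both arrays. A probe detected on 1 array has a bound, which is its bright level over a reference level of the dim array. The reference is the lowest detected level or the probe's own dim level, whichever is higher. In the latter case the bound is the plain difference. A difference was called at 2-fold.

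The error of a probe is the software's signal error. It took the same value, 0.144 per level, for bright probes such as SERPINB5 and SERPINB13 in DLEU1 cells. It therefore does not measure a spread between spots. Across 282 detected probes with replicate spots, the pooled spot SD of the difference was 0.08. Different probes of a gene had a pooled SD of 0.47 over 4674 genes. Neither holds the variation between cultures, and precision is limited by having 1 array per vector. Each cluster probe had 1 spot.

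The genes named were all cluster genes, DLEU1, and from each comparison list those past 2-fold and the extremes. Other genes of these lists, given for completeness, were chosen after their values were seen. The members and lists were chosen with earlier results of these data known. A further gene is not reported here and was left out of the counts of its list. Probe positions are those of the files (hg19). Upstream windows are from RefSeq. The computation of levels and gene differences was tested on simulated data, and the bounds, the motif search and the other settings were not. The computations used Python 3.11.15, R 4.3.3 and limma 3.58.1 (normexp with an offset of 50, quantile). Other settings were 6 scalings, normexp, the series values, 3 detection filters, the mean of probes, other fold thresholds, leaving out the strip of low signal, and subtracting the median difference of the nearest 100 spots.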

Additional observations from a re-analysis of the deposited data

How the results depend on the processing

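The number of cluster genes at least 2-fold higher was 4 of 6 as reported and ranged from 3 of 5 at a minimum signal of 100 (7.27% of all gene names) to 6 of 10 with no filter on dim probes (9.77%). The latter adds SERPINB2 and SERPINB11, of which SERPINB11 was not well above background on either array (1.62 with a software error of 1.53). The number at least 2-fold lower was 0 in all settings. The median difference, 3.02, became 3.13 when the 75th percentile was taken over probes detected on both arrays, 2.91 with median scaling, 3.11 with loess, 2.68 with spike-in scaling, 2.53 with normexp, 2.96 with signal positive and significant against background, 3.71 at a minimum signal of 100 and 1.98 with no filter. These filters change which genes enter the median. Of 83 values of single genes detected on both arrays, 29 were identical by construction, since each gene has 1 probe that the filters, the mean of probes and the strip leave as it is. Of the other 54, 21 moved by less than the median spot SD of 0.0554 and 33 by more, and 0 of those called at 2-fold changed sign. SERPINB8, not called, had the sign opposite to its reported value with spike-in scaling (-0.18), where the median of all gene names was -0.41. No paired analysis was possible because each group had 1 array. Dim probes limit SERPINB2, SERPINB7 and the undetected genes.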
